A study of Homo sapiens with 4 samples.

Results

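The genes described here encode the DNA replication machinery, that is the proteins that mark replication origins, load and start the replicative helicase, copy both strands and supply deoxynucleotides. They were taken as a list of 43 gene symbols, and all 43 were found by symbol among the 57979 genes of the expression table. All 43 also had an average above 1 FPKM (fragments per kilobase of transcript per 1000000 mapped fragments, a level already divided by transcript length), as did 13246 genes in total. In a dividing cell the origin recognition complex binds DNA, CDC6 and CDT1 bring the ring of MCM2 to MCM7 to it, and geminin blocks a repeat of that step within the same cycle. CDC45 and GINS then join the ring to make the active helicase, polymerase alpha-primase lays down primers, and polymerases epsilon and delta extend them on the PCNA clamp. Transcription of many of these genes rises as cells approach S phase under the control of E2F factors and the retinoblastoma proteins that restrain them.

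The libraries were made from poly(A) RNA of cells labeled HepG2, a human line from a liver tumor, in 2 groups of 2: wild-type cells, and cells in which TXNDC9, a thioredoxin-domain protein, had been targeted by CRISPR-Cas9. Both groups were grown in DMEM with 10% FBS and carried no other labeled treatment. The study asked which genes depend on TXNDC9 in cells whose growth was also measured. According to its methods, the knockout was made with a lentiCRISPRv2 construct carrying either of a pair of guides. Which guide these libraries carry, whether they come from a clone or a mixed population, and whether the replicates are separate cultures is not given in the sources used here. The p-values below therefore measure only the spread between these libraries, which may be technical. Because the RNA came from whole cultures, fewer cells in S phase and less of an mRNA in each such cell cannot be told apart.

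Stretches of 7 promoters are shown because these genes include called genes and opposed subunits of the same complex, and because the letters bear on the control that the family is known for. RefSeq promoter windows (GRCh38.p14, reaching 250 bases upstream and 50 bases downstream of the start site) were matched to 37 of the 43 genes. MCM4, MCM5, GINS4, POLD3, RPA2 and RPA3 had no window in the table. A window was read on both strands for the E2F spellings TTTCCCGC, TTTCGCGC, TTTGCCGC and TTTGGCGC, and for the E-box spelling CACGTG, which MYC and its partners can bind. Each stretch is 120 bases long, reads 5′ to 3′ on the strand of the gene and ends no more than 10 bases past the start site. Capitals mark the E2F spelling nearest the start site and, in MCM7, also the E-box. The stretches lie at chr16:88803679-88803798 on the plus strand (CDT1), chr19:48170395-48170514 on the minus strand (LIG1), chr14:49688205-49688324 on the minus strand (POLE2), chr7:100101388-100101507 on the minus strand (MCM7), chr2:135876466-135876585 on the minus strand (MCM6), chr11:65261852-65261971 on the plus strand (POLA2) and chrX:24693725-24693844 on the plus strand (POLA1).
CDT1: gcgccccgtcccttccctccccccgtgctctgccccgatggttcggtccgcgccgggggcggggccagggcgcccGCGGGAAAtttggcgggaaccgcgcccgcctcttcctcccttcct
LIG1: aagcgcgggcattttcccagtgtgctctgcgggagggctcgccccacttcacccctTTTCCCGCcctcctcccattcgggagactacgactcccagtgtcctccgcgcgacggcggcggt
POLE2: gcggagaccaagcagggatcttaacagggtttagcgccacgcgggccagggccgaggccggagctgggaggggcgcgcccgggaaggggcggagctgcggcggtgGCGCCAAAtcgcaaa
MCM7: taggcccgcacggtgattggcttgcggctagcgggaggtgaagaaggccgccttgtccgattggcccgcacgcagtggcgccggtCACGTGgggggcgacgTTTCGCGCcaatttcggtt
MCM6: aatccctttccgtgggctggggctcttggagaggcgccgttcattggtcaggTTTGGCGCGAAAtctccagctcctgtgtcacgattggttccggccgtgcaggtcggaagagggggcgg
POLA2: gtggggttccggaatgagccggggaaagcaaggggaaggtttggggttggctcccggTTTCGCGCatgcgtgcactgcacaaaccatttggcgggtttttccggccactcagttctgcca
POLA1: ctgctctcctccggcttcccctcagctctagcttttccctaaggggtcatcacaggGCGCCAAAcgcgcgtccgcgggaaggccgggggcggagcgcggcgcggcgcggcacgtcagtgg
Start sites here are those of the RefSeq windows. The gene positions printed below are those of GENCODE 44, whose bounds are wider for some genes. The stretches of LIG1, POLE2 and MCM7 lie wholly inside those bounds. The E2F spelling began 35 bases before the start site in CDT1 and 114 bases upstream in LIG1. In POLE2 it began 5 bases before that site and ran across it. MCM7 held an E-box at 25 bases and an E2F spelling at 9 bases before the start, and the last base of the latter was also the first base of a CCAAT spelling. In MCM6, 2 overlapping E2F spellings began 90 and 86 bases before the start.

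An E2F spelling was present in 17 of the 37 windows (45.9%), against 908 of 27305 promoters in the whole table (3.33%) and 507 of the 9007 that belong to tested genes (5.63%). The 17 were those of CDC6, CDT1, GINS1, GINS2, GINS3, LIG1, MCM2, MCM3, MCM6, MCM7, ORC3, PCNA, POLA1, POLA2, POLE, POLE2 and RFC3. The E-box spelling was in 5 windows (13.5%), those of FEN1, GMNN, MCM2, MCM7 and RPA1, against 7.43% of all promoters and 10.6% of those of tested genes. The spelling CCAAT was in 22 windows (59.5%), against 35.7% and 37.2%. The spelling TTTGAA of the cell cycle homology region was in 1 window (2.7%), that of RRM1, against 15.4% and 9.41%. These matches describe letters only and locate no bound factor.

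Library facts that touch every value below are few. Added over all genes, FPKM came to 805816 and 971102 for wild-type and only 535973 and 568279 for knockout, so the scale of a whole library moved with the group. No read counts were given and the depth behind each value is unknown. TXNDC9 itself stood at 35.1 and 37.3 FPKM in the wild-type pair and at 21.9 and 27.6 FPKM in the knockout pair (log2 fold change -0.55, SE 0.14, limma adjusted p 0.0145). It was thus lower in both knockout libraries but not past the 0.01 threshold, and on the TPM scale its log2 fold change was 0.12. These values are of mRNA and do not measure the protein. The study reported reduced TXNDC9 by western blot in its knockout HepG2 cells. Defining hepatocyte markers of HepG2 were at or near 0 in every library: of ALB, AFP, APOA1, APOB, TTR, SERPINA1, FGB, TF, HNF4A and FOXA2, 5 to 7 were listed at 0 in each library, and the highest single value was 0.449 FPKM (AFP in wild-type replicate 2). These data therefore go against the HepG2 label, and the libraries are called wild-type and knockout by their labels only. Of 7 markers of other cells (PTPRC, CD68, PECAM1, COL1A1, COL1A2, DCN and KRT14), the summed level was 30.5 to 36.9 FPKM in wild-type and 25.8 to 27.7 FPKM in knockout libraries, mostly COL1A1 at 17.5 to 31.5 FPKM, and COL1A2 was listed at 0 in all 4.

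In the knockout libraries, 4 of the 43 replication genes were called lower: CDT1, which loads the helicase; POLD1 and POLE2, subunits of the replicative polymerases; and LIG1, the ligase that seals Okazaki fragments. A single gene, GINS4 of the GINS complex, was called higher. A call required a limma adjusted p under 0.01 and at least a 2-fold change on the log2(FPKM + 0.1) scale, with adjustment over all 13246 tested genes. The 4 lower genes were 9.3% of the list, where 15.3% of all tested genes were called lower, and the 1 higher gene was 2.33%, where 14.2% of all were called higher. With adjusted p under 0.01 at any fold, 15 genes (34.9%) were lower, against a background of 27.1%, and 5 (11.6%) were higher, against 23.7%. The remaining 23 did not pass.

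The values of the groups seldom overlapped, in this list or elsewhere. Both knockout values lay below both wild-type values for 21 of the 43 genes (48.8%, background 45.9%) and above them for 17 (39.5%, background 40.1%). The groups overlapped for the other 5, MCM3, ORC3, RPA1, RPA3 and RRM2. With 2 libraries against 2, an exact permutation test of a single gene cannot give a p below 0.33. The median log2 fold change of the list was -0.188, beside -0.088 for all tested genes, and its median absolute log2 fold change was 0.460, beside 0.703. The replication genes were also better expressed, with a median level of 48.0 FPKM over all libraries against 12.7 FPKM. Their wild-type libraries differed by a median of 0.166 on the log2 scale and their knockout libraries by 0.083, beside 0.205 and 0.106 for all tested genes.

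**Figure D1:**
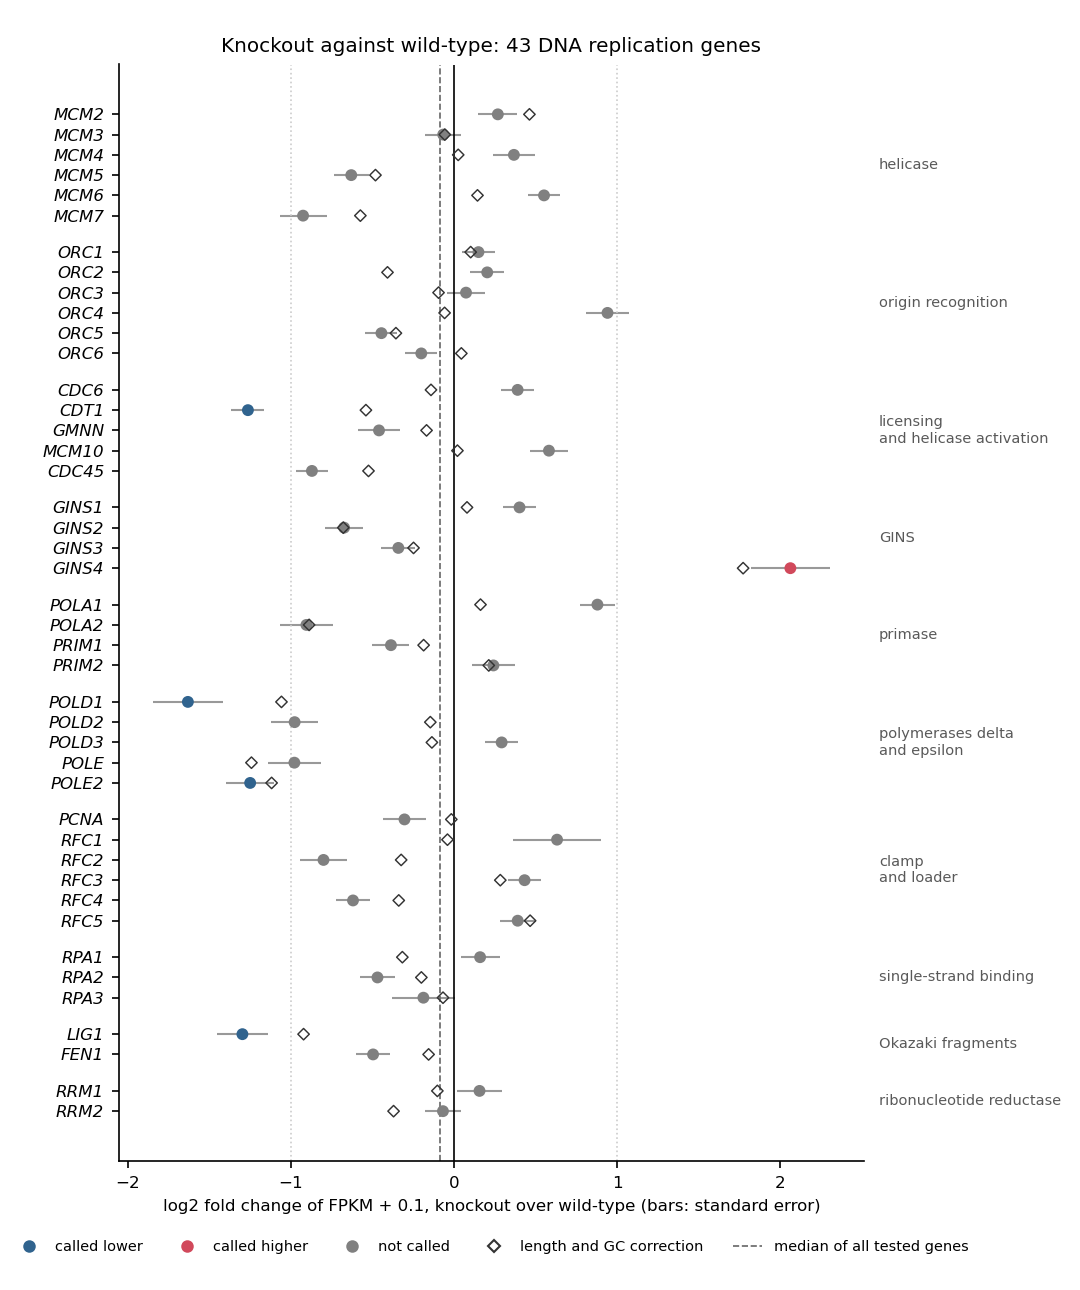
Knockout against wild-type for each of the 43 replication genes, by role. The horizontal axis is the log2 fold change of FPKM + 0.1, points are the estimates with bars of 1 standard error, open diamonds are the values after correction for transcript length and GC content, dotted lines mark a 2-fold change and the dashed line is the median of all tested genes (-0.088). CDT1, POLD1, POLE2 and LIG1 lie left of the lower dotted line and GINS4 lies to the right of the upper line at 2.06.

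The groups did not overlap for any of the 5 called genes, so leaving out 1 of the 4 libraries could not reverse their direction. It shows only how far the estimates moved. They lay from -1.31 to -1.22 for CDT1, -1.96 to -1.31 for POLD1 and -1.41 to -1.09 for POLE2. For LIG1 they lay from -1.51 to -1.09 and for GINS4 from 1.70 to 2.42. With either knockout library left out, which leaves 1 in that group, limma made 0 calls among all 13246 tested genes, so the calls of single genes could not be judged there, and 19 (without replicate 1) and 20 (without replicate 2) of the 43 genes had an unadjusted p under 0.05. Leaving out wild-type replicate 1 gave 8 genes lower and 3 higher. The calls did depend on the scale of the values. Rescaling each library to TPM, so that all sum to the same total, shifted the median of all tested genes by 0.67 (from -0.088 to 0.585), gave 0 genes of the list lower by limma and 11 higher, with 32 of the 43 at an unadjusted p under 0.05, and turned 14 of the 24 lower estimates to higher. Of all calls in the table, 48.3% were higher as deposited, 90.7% on the TPM scale and 35.8% with libraries centred on their median, where 9 of the 43 were called lower and 1 higher. On the TPM scale the list's median was 0.491 against 0.585 for all tested genes. The estimates of MCM7, CDT1, CDC45, POLA2, POLD1, POLD2, POLE, POLE2, RFC2 and LIG1 were below 0 in the analysis as planned and in all 14 alternatives. Those of MCM2, MCM4, MCM6, ORC1, MCM10, GINS1, GINS4, POLA1, PRIM2, RFC3 and RFC5 were above 0 in all of them. Under the length and GC correction some were near 0, with MCM10 and MCM4 at 0.02, GINS1 at 0.08 and ORC1 at 0.10. The rest of these lay from 0.14 (MCM6) to 1.77 (GINS4). The other genes changed sign in at least 1 alternative. For the genes of steady sign the groups did not overlap, so leaving out a library could not turn them. Other pseudocounts, filters, the fit with no trend and the replicate block hardly alter an estimate. Their sign was thus open to change only under TPM, centring and the length and GC correction.

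The 6 subunits of the helicase ring, MCM2 to MCM7, unwind the parental strands and are present in equal number in the ring. None was called. MCM7 stood at 286 and 348 FPKM in wild-type libraries but at 161 and 171 FPKM in knockout ones. The knockout values were both well below the wild-type values (log2 fold change -0.93, SE 0.14, limma adjusted p 0.00256), short of the 2-fold threshold. MCM5 had 131 and 142 FPKM in wild-type against 86.6 and 89.5 FPKM in knockout libraries, again without overlap (-0.63, SE 0.11, limma adjusted p 0.00362). On the TPM scale, however, the MCM5 estimate was 0.05. MCM6 had the opposite direction, with 44.5 and 45.0 FPKM in wild-type against 65.4 and 65.8 FPKM in knockout libraries (0.55, SE 0.10, limma adjusted p 0.00384). Its replicates were the closest of the ring in both groups. After correction for transcript length and GC content, the estimates of MCM7, MCM5 and MCM6 were -0.57, -0.48 and 0.14. MCM2, MCM3 and MCM4 had log2 fold changes of 0.27, -0.07 and 0.37, with limma adjusted p from 0.0452 to 0.611. MCM3 values overlapped between the groups, at 140 to 146 FPKM and 132 to 141 FPKM.

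The origin recognition complex, ORC1 to ORC6, is the platform on which the ring is loaded. ORC4 was at 10.4 and 8.77 FPKM in the wild-type pair and at 17.1 and 19.7 FPKM in the knockout pair. The knockout values were the higher pair without overlap (0.94, SE 0.13, limma adjusted p 0.00191), just short of 2-fold. The ORC4 transcript is long (6547 nt) and poor in GC (37.4%), and after correction for both its estimate was -0.06. ORC5 was at 32.4 and 34.5 FPKM in wild-type libraries but at 24.9 and 24.1 FPKM in knockout ones. It passed the adjusted p narrowly (-0.45, SE 0.10, limma adjusted p 0.0092), and on the TPM scale it was at 0.23. ORC1, ORC2, ORC3 and ORC6 had estimates between -0.20 and 0.20 with limma adjusted p of 0.115 or more. ORC2 had the lowest level of the complex, 8.14 to 8.48 FPKM in wild-type libraries.

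Among the factors that license origins and start the helicase, CDT1 fell. CDT1, at chr16:88803789-88809258 on the plus strand, had 87.2 and 92.8 FPKM in wild-type against 38.0 and 36.8 FPKM in knockout libraries. Wild-type replicates differed from each other by far less than the groups did (mean 2.41-fold lower, log2 fold change -1.26, SE 0.10, limma adjusted p 0.000538). CDT1 mRNA has a GC content of 64.3%, its corrected estimate was -0.54 and its TPM estimate -0.58. Geminin (GMNN), the inhibitor that binds CDT1, had 155 and 181 FPKM in the wild-type pair and 119 and 124 FPKM in the knockout pair (-0.46, limma adjusted p 0.0206), and 0.22 on the TPM scale. The ratio of their levels was not tested. CDC45, which joins the ring to activate it, had 60.6 and 64.8 FPKM in wild-type libraries but 34.4 and 34.0 FPKM in knockout ones. The groups stood far apart beside their replicates (-0.87, SE 0.10, limma adjusted p 0.000988), but below 2-fold. MCM10, which acts as the helicase starts, had the opposite direction, at 8.18 and 7.26 FPKM in wild-type against 11.2 and 11.9 FPKM in knockout libraries (0.58, SE 0.12, limma adjusted p 0.00629). CDC6, the loading ATPase, was at 0.39 with a limma adjusted p of 0.0158. The corrected estimates of CDC45, MCM10 and CDC6 were -0.52, 0.02 and -0.14.

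The 4 GINS subunits form a compact assembly that ties CDC45 to the ring, and they held the largest difference of the list. GINS4, at chr8:41529218-41545030 on the plus strand, had 6.65 and 4.01 FPKM in the wild-type pair and 20.2 and 23.7 FPKM in the knockout pair. Both knockout values were above both wild-type values by several times the replicate gap (mean 4.12-fold higher, log2 fold change 2.06, SE 0.24, limma adjusted p 0.00108). Of the 5 called genes, GINS4 alone kept its call on the TPM scale (2.74), with centred libraries and with the length and GC correction (1.77). The annotation places GPAT4-AS1 on the opposite strand over part of GINS4, and strand use in counting was not given in the sources used here, so reads of the pair cannot be told apart. GINS2 had 43.2 and 49.0 FPKM in wild-type libraries but 27.3 and 30.3 FPKM in knockout ones (-0.67, SE 0.12, limma adjusted p 0.00378). On the TPM scale the GINS2 estimate was 0.00. GINS1 and GINS3 had estimates of 0.40 and -0.34, with limma adjusted p of 0.0141 and 0.0294.

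Polymerase alpha-primase, which makes the RNA-DNA primers, also split. The catalytic subunit POLA1 had 14.0 and 13.0 FPKM in wild-type against 23.8 and 26.0 FPKM in knockout libraries. Its partner POLA2 had 45.1 and 55.1 FPKM in the wild-type pair and 23.6 and 29.8 FPKM in the knockout pair. Neither set of groups overlapped, POLA1 being higher (0.88, SE 0.11, limma adjusted p 0.00118) and POLA2 lower (-0.91, SE 0.16, limma adjusted p 0.00416). After length and GC correction POLA1 was at 0.16 and POLA2 at -0.89. PRIM1 and PRIM2, the primase subunits proper, had estimates of -0.39 and 0.24 with limma adjusted p of 0.0253 and 0.148.

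The polymerases delta and epsilon, which extend the lagging and the leading strand, had 4 of 5 genes of the list lower with adjusted p under 0.01, against 27.1% of all tested genes, and a median log2 fold change of -0.98. Their subunits POLD4, POLE3 and POLE4 were placed among the fork proteins of the further list below. These had estimates of -0.77, -0.08 and -0.98, with limma adjusted p of 0.0163, 0.539 and 0.00266. POLD1, the catalytic subunit of polymerase delta at chr19:50384204-50418018 on the plus strand, had 95.4 and 149 FPKM in wild-type libraries but 37.7 and 39.3 FPKM in knockout ones. The wild-type replicates were far apart, yet both stood above the knockout values (mean 3.18-fold lower, log2 fold change -1.63, SE 0.22, limma adjusted p 0.0015). The annotation also lists a gene without a symbol on the same strand over POLD1. POLE2, the second subunit of polymerase epsilon at chr14:49643555-49688422 on the minus strand, had 15.1 and 18.9 FPKM in wild-type against 6.61 and 7.50 FPKM in knockout libraries. It fell by more than the spread of either group (mean 2.41-fold lower, log2 fold change -1.25, SE 0.15, limma adjusted p 0.00109). POLE2 mRNA is short (1692 nt) and poor in GC (39.7%), unlike that of POLD1 (64.8%), and its corrected estimate was -1.12.

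Below the fold threshold by the smallest margin were POLE and POLD2. POLE, the catalytic subunit of polymerase epsilon, had 41.5 and 50.6 FPKM in the wild-type pair and 26.1 and 20.6 FPKM in the knockout pair (-0.98, SE 0.16, limma adjusted p 0.00317). Its transcript is the longest of the list at 7823 nt, and after length and GC correction, when POLE was called lower, the estimate was -1.24. POLD2, a structural subunit of polymerase delta, had 326 and 390 FPKM in wild-type libraries but 174 and 189 FPKM in knockout ones (-0.98, SE 0.14, limma adjusted p 0.0021). For POLD2 the corrected estimate was -0.15. POLD3 had the opposite direction, at 10.3 to 10.6 FPKM in wild-type and 12.4 to 13.3 FPKM in knockout libraries (0.29, limma adjusted p 0.0474), and its corrected estimate was -0.14.

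PCNA, the clamp that holds the polymerases on DNA, was among the 3 most abundant mRNAs of the list, at 301 and 340 FPKM in wild-type against 248 and 271 FPKM in knockout libraries (-0.30, limma adjusted p 0.0897). The groups did not overlap, but the gap did not pass the test and was 0.38 on the TPM scale. RFC1 to RFC5 form the loader that opens the clamp. RFC2 had 79.9 and 101 FPKM in the wild-type pair and 50.4 and 52.9 FPKM in the knockout pair (-0.80, SE 0.14, limma adjusted p 0.00414). RFC4 had 91.6 and 99.3 FPKM against 60.8 and 63.3 FPKM (-0.62, SE 0.11, limma adjusted p 0.00355). Both were lower without overlap, whereas RFC1, RFC3 and RFC5 had estimates of 0.63, 0.43 and 0.39 with limma adjusted p from 0.0121 to 0.0817. RFC1, the large subunit, was unsteady between wild-type replicates, at 18.2 and 10.5 FPKM, beside 19.4 and 23.8 FPKM in knockout libraries. Without wild-type replicate 1 RFC1 was among the genes called higher.

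The single-strand binding trimer RPA1, RPA2 and RPA3 coats the unwound strands. RPA2 had 59.4 and 65.5 FPKM in wild-type libraries but 43.7 and 46.3 FPKM in knockout ones. The knockout values were the lower ones, and the test was missed by a narrow margin (-0.47, SE 0.11, limma adjusted p 0.0104). RPA1 and RPA3 had estimates of 0.16 and -0.19 and overlapping groups. RPA3 varied most between wild-type replicates, at 42.2 and 62.6 FPKM, and its estimate without wild-type replicate 2 was 0.10.

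On the lagging strand, FEN1 trims the flap of each Okazaki fragment and LIG1 seals the nick. LIG1, at chr19:48115445-48170603 on the minus strand, had 57.6 and 77.0 FPKM in wild-type against 27.0 and 27.1 FPKM in knockout libraries. The knockout replicates were almost equal and both lay below the wild-type values (mean 2.49-fold lower, log2 fold change -1.30, SE 0.16, limma adjusted p 0.00113). Its corrected estimate was -0.92 and its TPM estimate -0.62, neither of them a call. FEN1 had 124 and 128 FPKM in the wild-type pair and 86.5 and 92.2 FPKM in the knockout pair (-0.50, SE 0.11, limma adjusted p 0.00822), and 0.18 on the TPM scale. FADS2 overlaps FEN1 on the same strand.

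Ribonucleotide reductase makes the deoxynucleotides that the polymerases consume, and neither of its genes was called. RRM1, the large subunit, was the most abundant mRNA of the list in both groups, at 487 and 519 FPKM in wild-type libraries but 550 and 571 FPKM in knockout ones (0.16, SE 0.14, limma adjusted p 0.347). RRM2, the small subunit whose level follows S phase, overlapped between groups at 102 and 111 FPKM against 98.4 and 105 FPKM (-0.07, limma adjusted p 0.604). On the TPM scale their estimates were 0.84 and 0.61.

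**Figure D2:**
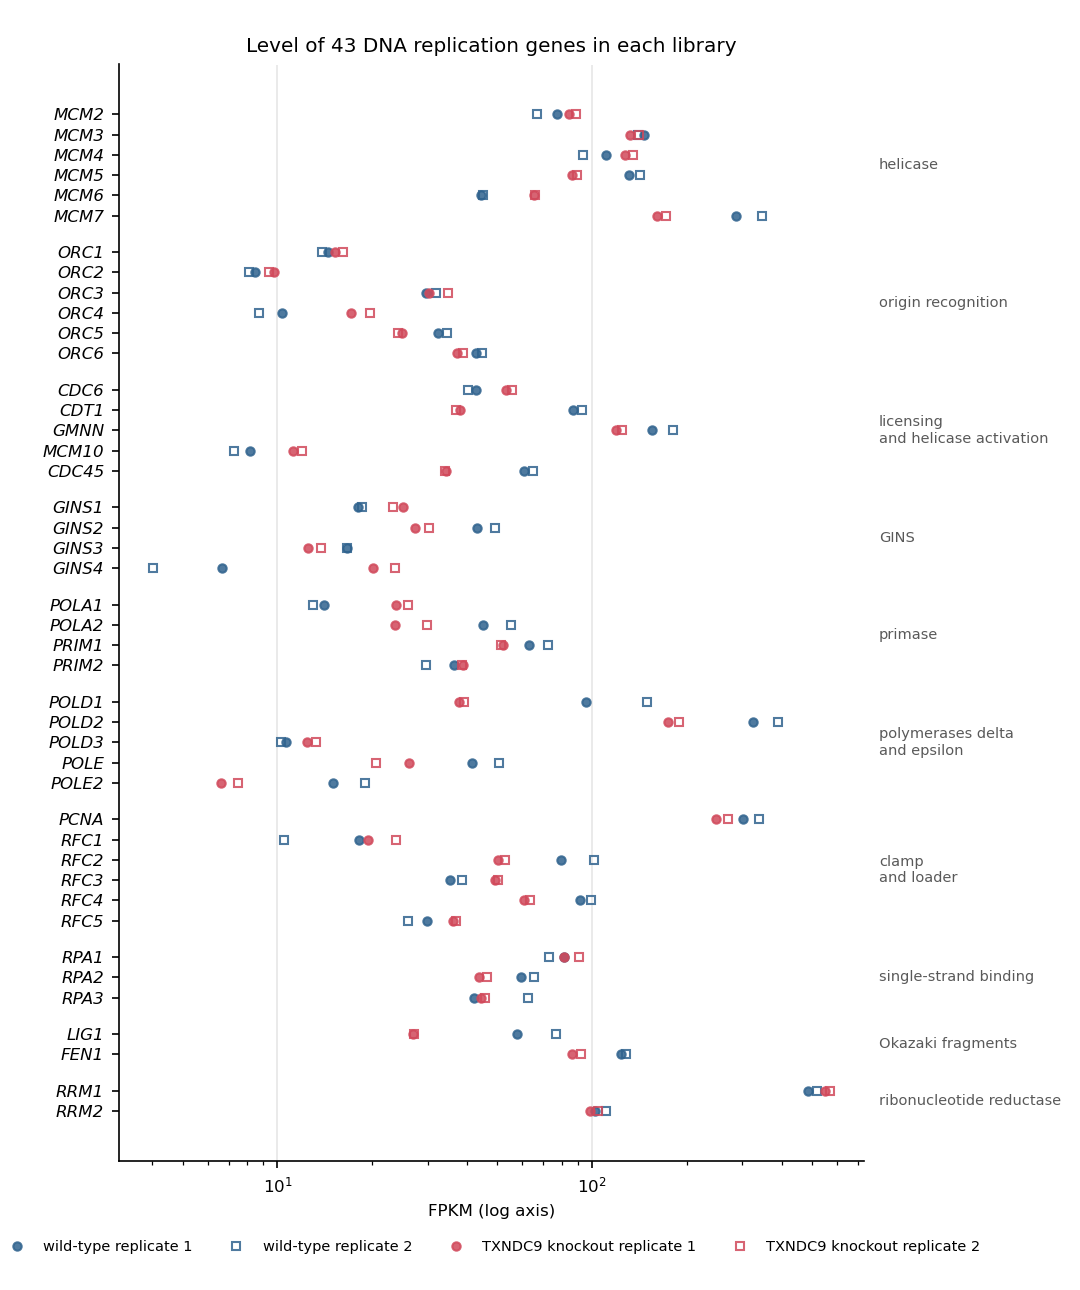
FPKM of each of the 43 replication genes in each of the 4 libraries, by role, on a log axis. Circles and squares are replicates 1 and 2, blue is wild-type and red is TXNDC9 knockout. Levels run from 4.01 FPKM (GINS4 in wild-type replicate 2) to 571 FPKM (RRM1 in knockout replicate 2), and for most genes the red symbols lie together on the same side of the blue ones.

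The order of levels, which FPKM gives per transcript length, also differed between the groups. By group mean, the genes that changed place by the most ranks were POLD1, from rank 9 to rank 22, CDC6, from 27 to 15, MCM6, from 25 to 13, and LIG1, from 18 to 29. CDT1 (14 to 24), POLE (24 to 34) and RFC3 (28 to 18) followed. GINS4 was the lowest of the 43 in wild-type and rank 35 in knockout libraries, and POLE2 went from rank 34 to the lowest. The summed level of the 43 genes was 3528 and 3894 FPKM in wild-type against 2922 and 3079 FPKM in knockout libraries, lower in both. As a share of each library's FPKM sum it was 0.438% and 0.401% in wild-type and 0.545% and 0.542% in knockout libraries, which is the opposite direction.

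A log2 difference between subunits of the same complex within a library moves with the scale of the library only through the pseudocount, so the balance inside 6 complexes was compared on log2(FPKM + 0.1). In the MCM ring, MCM7 was 6.42 and 7.73 times the level of MCM6 in wild-type and 2.45 and 2.61 times in knockout libraries. The log2 difference of MCM6 over MCM7 was thus 1.48 higher in knockout libraries, and 0.72 higher after length and GC correction. GINS2 was 6.50 and 12.2 times GINS4 in wild-type and 1.35 and 1.28 times in knockout libraries, a shift of 2.74, or 2.45 when corrected. POLA2 was 3.21 and 4.25 times POLA1 in wild-type and 0.993 and 1.15 times in knockout libraries, a shift of 1.78, or 1.05 when corrected. In these complexes the spread among subunits narrowed, with the ratio of the highest to the lowest subunit going from 6.42 and 7.73 to 2.45 and 2.61 in the ring, from 6.50 and 12.2 to 2.19 and 2.20 in GINS, and from 4.50 and 5.59 to 2.20 and 1.97 in polymerase alpha-primase.

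The loader and the origin recognition complex moved the same way by less. RFC2 was 4.38 and 9.67 times RFC1 in wild-type and 2.61 and 2.22 times in knockout libraries, a shift of 1.43 that was 0.28 when corrected and 0.86 without wild-type replicate 2. ORC5 was 3.12 and 3.93 times ORC4 in wild-type and 1.45 and 1.22 times in knockout libraries, a shift of 1.39 that was 0.30 when corrected. RPA went the other way: RPA2 was 0.728 and 0.9005 times RPA1 in wild-type and 0.536 and 0.510 times in knockout libraries, so this pair moved apart, a shift of 0.63 that was -0.12 when corrected. Its ratio of the highest to the lowest subunit was 1.93 and 1.16 in wild-type and 1.86 and 1.99 in knockout libraries. The pairs are the most raised and the most lowered subunit of each complex, picked by these values, so the size of a shift is a description and carries no test. Under the correction, the shifts of GINS and polymerase alpha-primase were the ones that stayed above 1.

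**Figure D3:**
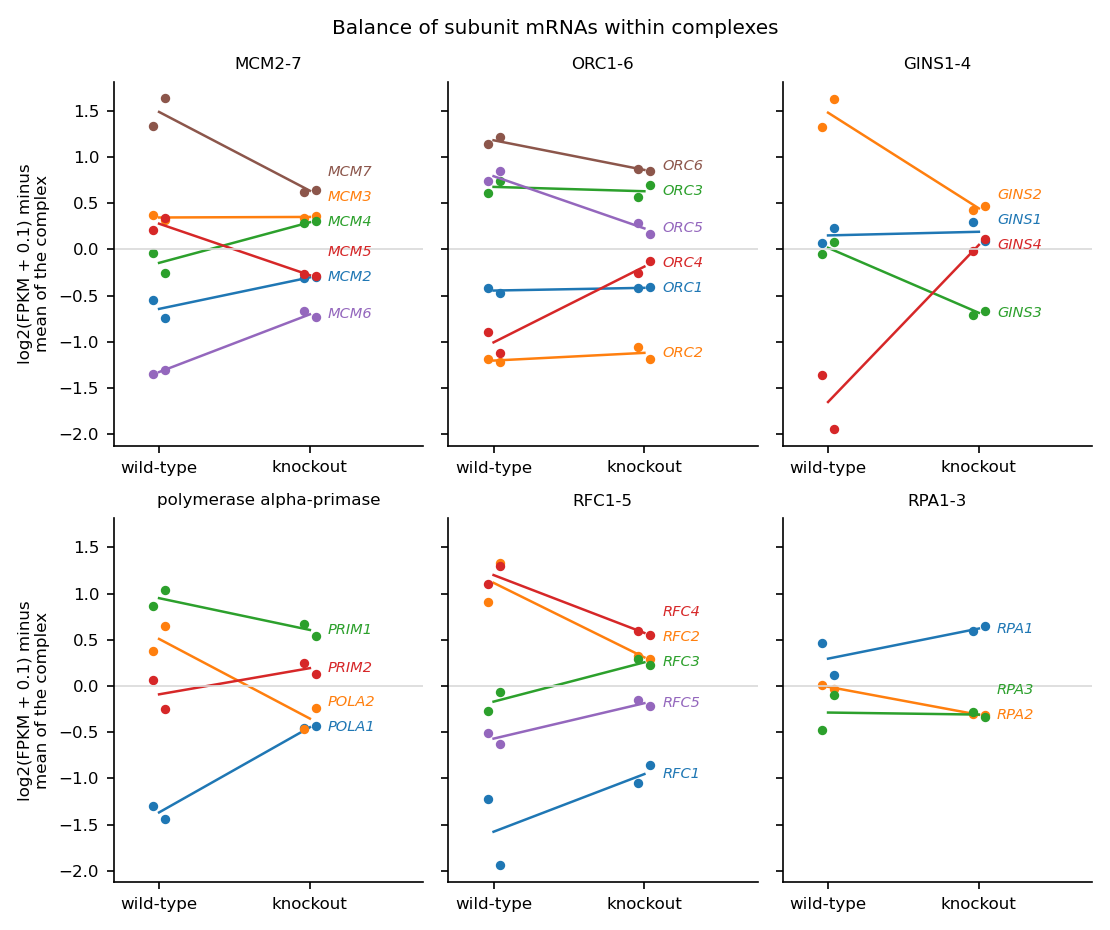
Level of each subunit relative to the mean of its complex, log2(FPKM + 0.1) minus that mean, in wild-type and knockout libraries for 6 complexes. Points are libraries and lines join group means, so a change in the scale of a whole library moves a point only through the pseudocount. In GINS the gap from GINS2 to GINS4 closed from 6.50 and 12.2 times to 1.35 and 1.28 times, and POLA1 and POLA2 met near the same level.

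Fold changes across the table followed transcript length and GC content, and the replication genes followed the same course. Over the 43 genes the Spearman correlation of the log2 fold change was 0.477 with transcript length and -0.567 with GC content, beside 0.495 and -0.462 over 13112 tested genes with an annotated transcript. All points share the same 4 libraries, and the values are given as a description. The length relation was present between wild-type replicates too, where the ratio of replicate 2 to replicate 1 had a correlation of -0.484 with length in the list and -0.325 in all tested genes. Between knockout replicates it was 0.157 and -0.063. Of 15 replication genes with GC above the median of tested genes (48.55%), the estimates of 13 were negative and those of MCM2 and ORC1 positive (median -0.872, beside -0.515 for all such genes). Of the 28 at or below it, 11 had a negative and 17 a positive estimate (median 0.181, beside 0.361).

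After a loess correction for both features, POLE and POLE2 were the called lower genes and GINS4 the called higher gene. CDT1, POLD1 and LIG1 kept estimates of -0.54, -1.06 and -0.92 without a call, although POLD1 was called when the correction was run with the replicate block. The corrected estimates changed sign for 9 genes, ORC2, ORC3, ORC4, ORC6, CDC6, POLD3, RFC1, RPA1 and RRM1. The part of length and GC in the other differences was not tested.

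**Figure D4:**
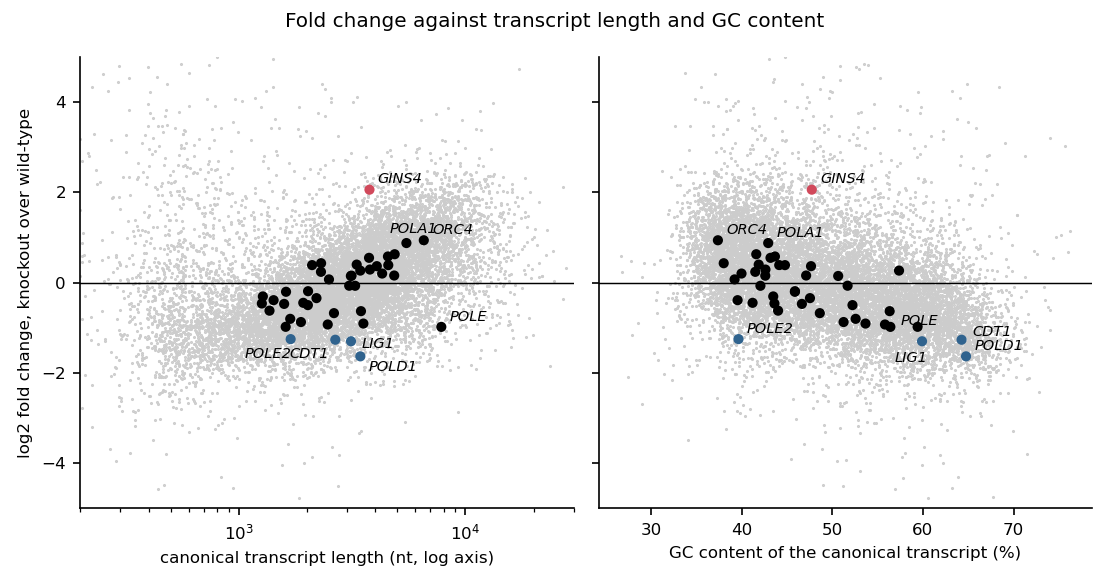
Log2 fold change of each gene against the length (left, log axis) and the GC content (right) of its canonical transcript. Gray points are tested genes, of which 71 of 13112 lie outside the axes, black points are the replication genes and colored points the 5 called ones. By GC content POLE2 lies below and GINS4 above most gray points, while CDT1, POLD1 and LIG1 sit among transcripts of high GC content.

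Replication genes with and without an E2F spelling were found in both directions, and the difference between them was not tested. Of the 17 genes with a spelling, 10 were lower and 7 higher (median -0.304, 3 called lower), and of the 20 with a window and no spelling, 11 were lower and 9 higher (median -0.135, 1 called lower). The 6 genes without a window, GINS4 among them, could not be placed. Opposed subunits could each hold an E2F spelling, as did MCM7 and MCM6, and POLA2 and POLA1, in the stretches printed above. The spelling was TTTCGCGC in POLA2 and TTTGGCGC, read on the opposite strand, in POLA1. Among the 5 genes with an E-box, FEN1, GMNN and MCM7 had estimates of -0.50, -0.46 and -0.93, and MCM2 and RPA1 of 0.27 and 0.16. In POLE the E2F spelling began 18 bases before the start site and in POLD1, the gene with the lowest estimate, no spelling was in the window.

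Genes that act with the machinery were read from another list of 61, of which 60 passed the filter (all but E2F8). Of these, 6 were called lower and 9 higher, and 15 lower and 25 higher with adjusted p under 0.01 alone, with a median log2 fold change of 0.105. Over all tested genes the shares were 15.3% called lower, 14.2% called higher, 27.1% lower and 23.7% higher by adjusted p alone, and the counts by role below are read beside them. Among 10 origin firing factors, RECQL4, a helicase needed for firing, had 78.7 and 108 FPKM in the wild-type pair and 22.5 and 23.4 FPKM in the knockout pair. It fell, with a log2 fold change of -2.00 (limma adjusted p 0.000562). MTBP, a partner of the firing factor TICRR, rose from 4.20 and 3.26 FPKM to 9.43 and 10.3 FPKM (1.39, limma adjusted p 0.000991), and its corrected estimate of 0.94 was no call. TOPBP1 was also called higher (1.25, limma adjusted p 0.000666), and its corrected estimate of 0.48 was no call. By adjusted p alone, 6 of the 10 were higher and 2 lower. The others higher, CDC7, TICRR, MCMBP and WDHD1, had corrected estimates of 0.14, 0.24, 0.02 and -0.33. Those lower, RECQL4 and LRWD1, had corrected estimates of -1.48 and -0.13. Of 16 fork proteins, 3 were called lower and 2 higher, and 5 were lower and 5 higher by adjusted p alone. RNASEH2C, a subunit of the nuclease that removes RNA from DNA, fell from 130 and 164 FPKM to 39.0 and 40.2 FPKM (-1.88, limma adjusted p 0.000532). CHTF18, of an alternative clamp loader, fell from 42.4 and 54.4 FPKM to 15.6 and 15.5 FPKM (-1.62, limma adjusted p 0.000595). Its corrected estimate of -0.89 was no call. The remaining fork gene called lower, added after its values were seen, was RNASEH2A (-1.36, limma adjusted p 0.000662). Its corrected estimate of -0.47 was no call either. The called higher fork genes, added after their values were seen, were CLSPN, which carries the checkpoint signal at the fork, at 9.61 and 5.99 FPKM in wild-type against 16.9 and 18.3 FPKM in knockout libraries (limma adjusted p 0.00498), and ATAD5, which unloads PCNA (1.22, limma adjusted p 0.000965). Under the correction their estimates were 0.26 and 0.20, and neither was called.

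The nucleotide enzymes and the E2F and RB families held the rest of the called genes. TK1, the thymidine kinase of S phase, fell from 246 and 300 FPKM to 108 and 117 FPKM (-1.27, limma adjusted p 0.000928). RRM2B, the reductase subunit that p53 induces, rose from 3.61 and 4.14 FPKM to 11.3 and 12.3 FPKM (1.59, limma adjusted p 0.000541). Both lost their call under the length and GC correction. Of the 8 nucleotide genes, 2 were called lower (background 15.3%) and 1 higher (background 14.2%). The other one called lower, added after its values were seen, was DTYMK (-1.23, limma adjusted p 0.00116). Its corrected estimate of -0.30 was no call. Of 12 E2F and RB genes, 4 were called higher (background 14.2%) and 0 lower (background 15.3%) by limma, with 3 lower at an unadjusted p under 0.05. The 4 were E2F7, a repressor of E2F targets, and the pocket proteins RB1, RBL1 and RBL2. With adjusted p under 0.01 alone, 7 were higher (background 23.7%) and 2 lower (background 27.1%). Those higher included E2F2, E2F3 and E2F6, at 0.77, 0.71 and 0.58. Those lower were E2F1 and E2F4, the latter at -0.80. RB1 stood at 6.96 and 5.46 FPKM in wild-type libraries but 20.0 and 20.4 FPKM in knockout ones (1.70, limma adjusted p 0.000563). RBL2 stood at 6.004 and 4.19 FPKM in wild-type against 18.2 and 18.4 FPKM in knockout libraries (1.85, limma adjusted p 0.000713). Under the correction RBL2 kept its call (1.21), whereas RB1 (0.89), E2F7 (0.94) and RBL1 (0.31) did not. E2F1 was at -0.75 (limma adjusted p 0.00272), below 2-fold. Its estimate was -0.08 on the TPM scale and -0.17 under the correction. The corrected estimates of E2F2, E2F3, E2F6 and E2F4 were 0.76, 0.17, 0.32 and -0.23.

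Of the 9 chromatin assembly genes 0 were called by limma, 6 had an unadjusted p under 0.05 and 4 were lower with adjusted p under 0.01 (background 27.1%), namely CHAF1A, ASF1B, NASP and SSRP1, from -0.65 to -0.52. On the TPM scale their estimates changed sign, to 0.11, 0.16, 0.03 and 0.06. Under the length and GC correction they were -0.35, 0.14, -0.88 and -0.49. Of the 5 S-phase kinase genes 0 were called by limma and 4 had an unadjusted p under 0.05. With adjusted p under 0.01, 3 were higher (background 23.7%), namely CDK2, CCNE2 and CDC25A, from 0.58 to 0.88. The remaining gene with an unadjusted p under 0.05 was CCNE1, which was lower (-0.75, limma adjusted p 0.0139). It had 6.14 and 8.61 FPKM in wild-type against 4.41 and 4.17 FPKM in knockout libraries. On the TPM scale the estimates of CDK2, CCNE2, CDC25A and CCNE1 were 1.26, 1.55, 1.47 and -0.08. Under the correction they were 0.66, 0.48, 0.68 and -0.41. CCNA2, the cyclin of S phase, was at 53.6 and 54.1 FPKM in the wild-type pair and 54.9 and 54.9 FPKM in the knockout pair (0.03, limma adjusted p 0.811). Its estimate was 0.71 on the TPM scale and -0.13 under the correction.

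**Figure D5:**
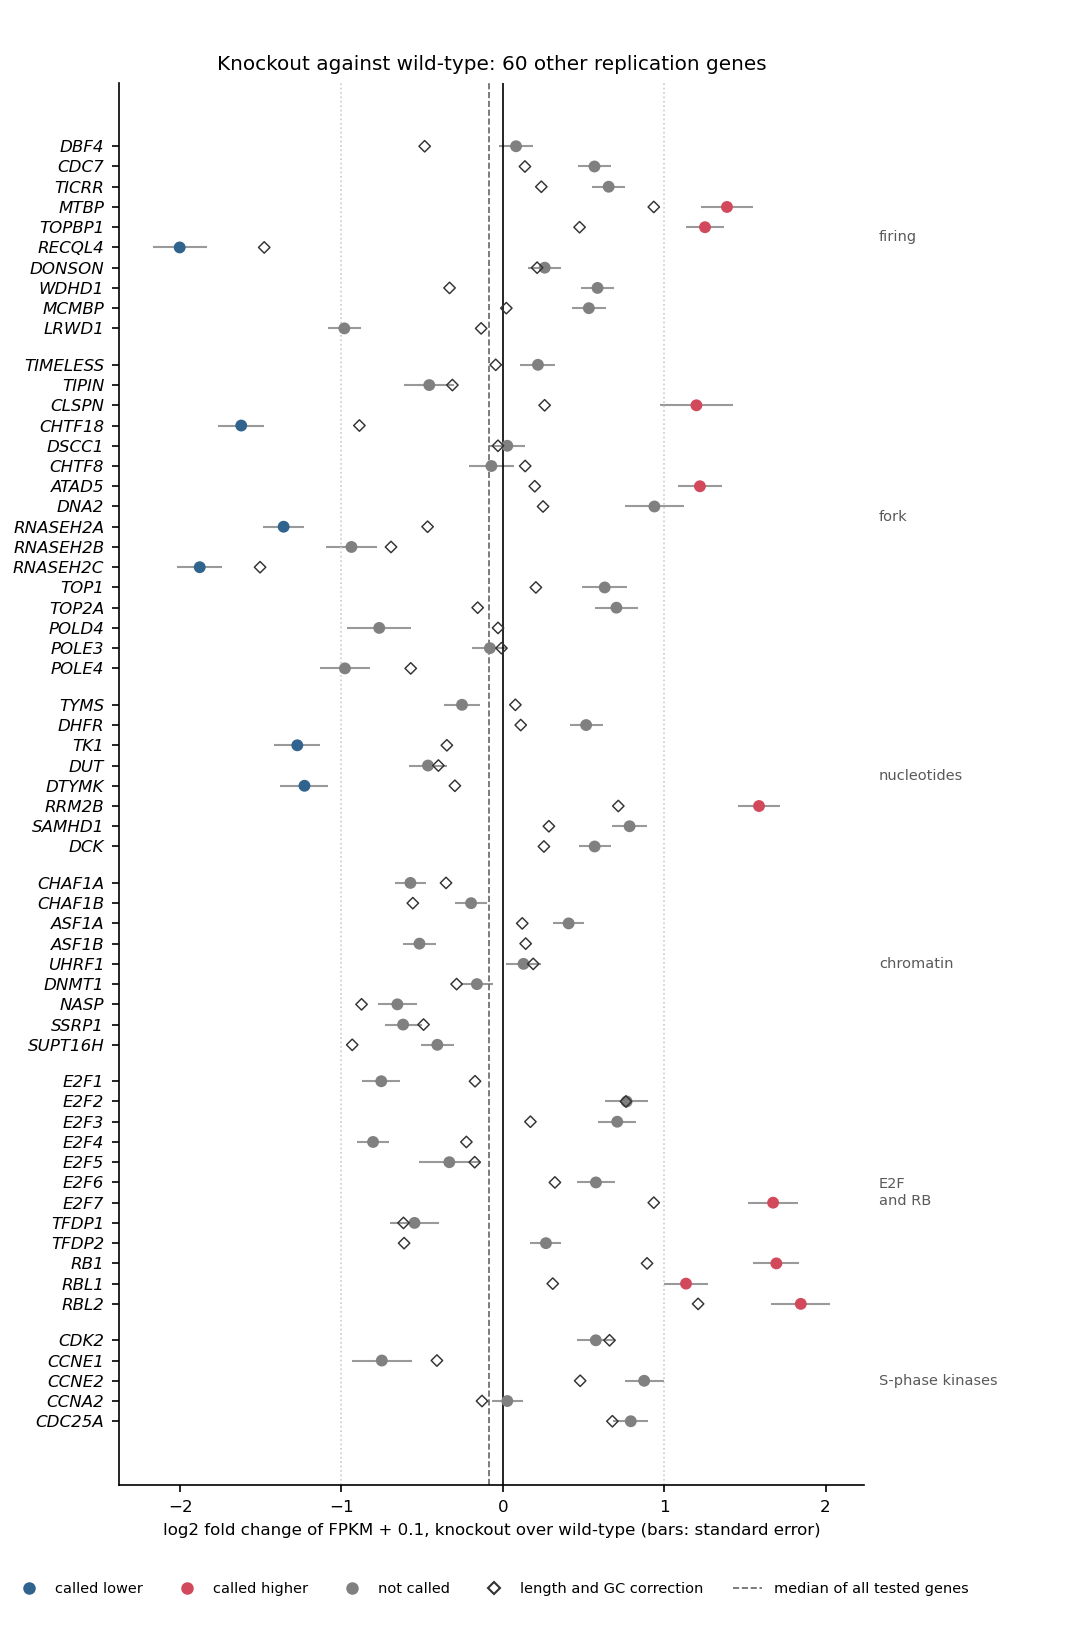
Knockout against wild-type for 60 further replication genes by role, with the same axis and symbols as the plot of the 43 genes. Blue points are called lower and red points called higher. RECQL4 and RNASEH2C lie farthest left, at -2.00 and -1.88, and RBL2, RB1 and E2F7 farthest right, at 1.85, 1.70 and 1.68.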

How the data were processed

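Poly(A) RNA of 2 wild-type and 2 TXNDC9 knockout libraries was sequenced on an Illumina HiSeq instrument. The authors aligned reads to hg38 with TopHat2 and an Ensembl annotation, without new junctions, and computed the deposited FPKM values with Cuffdiff of Cufflinks. Versions are not given in the sources used here. The table also holds the authors' fold changes, p-values and q-values, which were not used. Its identifiers are out of register with the symbols. Symbols were used as deposited, identifiers were restored by order, and for all 43 replication genes the restored identifier carries the same symbol in GENCODE 44.

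No counts are given and no read step was found in low values, so depth is unknown and no counting interval is possible. FPKM values were tested as log2(FPKM + 0.1) in limma 3.58.1 (R 4.3.3) allowing a trend of the prior variance with level, after a filter of average FPKM above 1, with Benjamini-Hochberg adjustment over 13246 genes. A call needed adjusted p under 0.01 and at least 2-fold, as in the thresholds of the study. The script was tested on simulated data. Alternatives were other pseudocounts (1 and 0.01), filters (none, 5 FPKM) and thresholds, TPM, median centring, a loess correction (span 0.3) for length and GC content of the GENCODE canonical transcript, no trend, a replicate block, and each library left out. Every called gene, the gene with the largest estimate of each role and those nearest the thresholds were named with all library values, as were the 2 largest called genes of each further role. Of the 43 genes, 27 overlap another annotated gene and 9 have a named pseudogene, so some of their reads may be shared. Members and lists were chosen with earlier results of these data known.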

Additional observations from a re-analysis of the deposited data

How the results depend on the processing

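Of the 43 replication genes, 4 were called lower and 1 higher as deposited. On the TPM scale these counts were 0 and 11, with median centring 9 and 1, with the length and GC correction 2 and 1, and with no fold threshold 15 and 5. Leaving out 1 library gave 0 to 8 lower and 0 to 3 higher; no gene of the whole table was called by limma without knockout replicate 1 or 2, where the remaining knockout library is assumed to vary like the others. The list's median moved from -0.188 to 0.491 on the TPM scale and lay between -0.231 and -0.097 with 1 library left out. On the TPM scale 10 genes had both knockout values under the wild-type range and 30 had them over it, and with centring 11 had them over it.

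Over all tested genes, 2021 lower and 1885 higher calls became 447 and 4380 on the TPM scale, 983 and 826 with the length and GC correction, and 3590 and 3142 with no fold threshold. A filter of 5 FPKM gave 1220 higher. Without 1 library the ranges were 0 to 2633 and 0 to 2136. The median of all tested genes was 0.031 with no filter, -0.180 above 5 FPKM, 0.585 on the TPM scale, -0.231 with centring, and -0.133 to -0.043 with 1 library left out. For the further replication genes, 6 lower and 9 higher became 2 and 26 on the TPM scale, 2 and 1 with the correction, 15 and 25 with no fold threshold, and 0 to 9 and 0 to 10 with 1 library left out. Their median of 0.105 became 0.784 on the TPM scale, -0.038 with centring and -0.019 with the correction.

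The shifts of subunit balance after the length and GC correction were 0.718 (MCM6 over MCM7), 0.298 (ORC4 over ORC5), 1.050 (POLA1 over POLA2), 0.284 (RFC1 over RFC2) and -0.116 (RPA1 over RPA2). Estimates that changed sign on the TPM scale were those of MCM3 (0.613), MCM5 (0.050), ORC5 (0.233), ORC6 (0.478), GMNN (0.220), GINS2 (0.004), GINS3 (0.335), PRIM1 (0.292), PCNA (0.376), RFC4 (0.060), RPA2 (0.210), RPA3 (0.491), FEN1 (0.183), RRM2 (0.612) and TXNDC9 (0.124). With the correction they were ORC2 (-0.408), ORC3 (-0.096), ORC4 (-0.058), ORC6 (0.044), CDC6 (-0.142), POLD3 (-0.136), RFC1 (-0.041), RPA1 (-0.317) and RRM1 (-0.103). ORC3 was at -0.070 with centring and ranged from -0.026 to 0.172 with 1 library left out, and RPA3 from -0.472 to 0.096. TPM divides by the library sum, which moved with the group; the cause of the other changes was not tested.

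Deviations of same-numbered libraries had a correlation of -0.0904. With 2 libraries in each group this value cannot settle whether equal replicate numbers pair the libraries. With the replicate block the calls stayed at 4 and 1, and 23 instead of 20 replication genes had an adjusted p under 0.01. The replicate block with the length and GC correction gave 3 lower and 1 higher, 983 and 730 over all tested genes, and 2 and 1 among the further genes, with the same estimates as the correction alone. Other pseudocounts, the 5 FPKM filter and the fit with no trend left 4 and 1 calls, and no filter left 3 and 1. An adjusted p under 0.05 gave the counts of the main threshold within 1.5 times.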
